A study of Sus scrofa with 14 samples.

Results

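Macrophages are the main resident immune cells of adipose tissue, and the 10 genes described here are markers that are widely used to recognise them: CD68, CD163, CSF1R, MRC1, CD14, AIF1, ITGAM, TREM2, CD9 and MARCO. They were chosen by name, and all 10 were found among the 21280 protein-coding genes of the RNA-seq tables. Whole adipose tissue came from female wild boars and female Bama pigs, a small domestic breed, which were 2 years old and were kept on the same farm on the same feed. The wild boars had been brought into captivity when young, and the Bama pigs came from a line that is not inbred. From each animal the greater omentum (GOM, visceral fat) and the upper layer of backfat (ULB, subcutaneous fat) were taken, and 7 RNA-seq libraries were used here: 2 of wild boar GOM, 2 of Bama pig GOM, 2 of wild boar ULB and 1 of Bama pig ULB, the library labelled replicate 2. With 2 animals per breed, the p-values measure the spread between these libraries, and breed cannot be told apart from the history of the individual animals. The labels do not say which libraries share an animal, so the tests that compare depots treat the libraries as independent.

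Adipose tissue macrophages are commonly described as falling along a range of states. Resident macrophages carry the haemoglobin scavenger receptor CD163 and the mannose receptor MRC1, lie along vessels and clear debris, whereas lipid-associated macrophages collect around dying adipocytes, take up lipid and carry the lipid receptor TREM2 and the tetraspanin CD9. CSF1R is the receptor through which CSF1 and IL34 keep macrophages alive, CD14 binds bacterial lipopolysaccharide for toll-like receptors, ITGAM is the alpha chain of an integrin shared with neutrophils and monocytes, AIF1 binds actin, CD68 is a lysosomal membrane glycoprotein, and MARCO is a scavenger receptor of macrophages that face the body cavities, the lung and the lymphoid organs. Of these, CD9 is also made by many other cell types.

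The genes lie on 7 autosomes. In the RefSeq annotation of Sscrofa11.1, CD163 (ENSSSCG00000033146) spans chr5:63300200-63334497 on the plus strand with 17 exons, and CD9 (ENSSSCG00000022230) lies on the same chromosome at chr5:64420177-64459783 on the minus strand with 8 exons. MRC1 (ENSSSCG00000011038) spans chr10:44107926-44226734 with 30 exons, MARCO (ENSSSCG00000015716) chr15:24502935-24541286 with 13 exons and CD68 (ENSSSCG00000017956) chr12:52874754-52877256 with 6 exons, all on the plus strand. TREM2 (ENSSSCG00000039270) spans chr7:36465921-36471509 on the minus strand with 5 exons, and AIF1 (ENSSSCG00000032341) chr7:23711752-23731191 on the plus strand with 6 exons. CSF1R (ENSSSCG00000014441) and CD14 (ENSSSCG00000014369) lie on chromosome 2, at chr2:151102138-151130311 and chr2:142348036-142349686, and ITGAM (ENSSSCG00000007754) lies at chr3:17216719-17272134, all 3 on the minus strand.

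The 250 bases before the start site are shown for the 4 genes on which the results turn: the resident markers CD163 and MRC1, the lipid-associated marker TREM2, and MARCO. Each is written 5′ to 3′ along the strand of its gene, and capitals mark GAGGAA, a core of the sites bound by the macrophage factor SPI1 (PU.1), on either strand, so that TTCCTC is the same motif on the other strand.

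CD163: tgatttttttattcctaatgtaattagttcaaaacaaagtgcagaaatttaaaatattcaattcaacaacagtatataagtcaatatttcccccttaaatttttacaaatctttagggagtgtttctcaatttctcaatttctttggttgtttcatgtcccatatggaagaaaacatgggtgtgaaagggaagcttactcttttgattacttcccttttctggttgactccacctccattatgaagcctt
MRC1: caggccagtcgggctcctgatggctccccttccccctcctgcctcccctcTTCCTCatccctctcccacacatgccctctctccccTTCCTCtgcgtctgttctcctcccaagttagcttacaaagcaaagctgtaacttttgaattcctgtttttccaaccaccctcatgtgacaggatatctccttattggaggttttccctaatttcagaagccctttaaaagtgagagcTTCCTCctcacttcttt
TREM2: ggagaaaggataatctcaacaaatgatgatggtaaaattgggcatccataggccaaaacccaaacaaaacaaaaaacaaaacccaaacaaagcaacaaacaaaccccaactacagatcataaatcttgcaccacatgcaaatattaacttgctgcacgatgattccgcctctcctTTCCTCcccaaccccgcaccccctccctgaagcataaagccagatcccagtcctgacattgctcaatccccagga
MARCO: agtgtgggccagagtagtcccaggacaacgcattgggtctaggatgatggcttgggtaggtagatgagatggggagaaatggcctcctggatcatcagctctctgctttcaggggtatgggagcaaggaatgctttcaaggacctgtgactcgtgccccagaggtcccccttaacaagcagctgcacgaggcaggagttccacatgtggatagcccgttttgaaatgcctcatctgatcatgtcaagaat

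These windows are chr5:63299950-63300199 for CD163, chr10:44107676-44107925 for MRC1, chr7:36471510-36471759 for TREM2 and chr15:24502685-24502934 for MARCO, in Sscrofa11.1. GAGGAA occurred in 3 of the 10 upstream windows, with 3 matches in MRC1, 2 in AIF1 and 1 in TREM2, whereas 22.0% of 19556 upstream windows of that length across all genes held it. The longer GAGGAAGT occurred in 0 of the 10 and in 1.64% of all windows. For AIF1 the window precedes the start of the curated transcript (chr7:23729168). The windows across all genes precede the start of the gene record, which for AIF1 is chr7:23711752. The GC content of the window was 31.6% for CD163, 44.8% for TREM2, 50.8% for MRC1 and 52.8% for MARCO, and reached 73.6% for CD9. These matches describe letters in the reference genome and not binding in these animals.

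All 10 genes were detected in all 7 libraries. In TPM, a transcript share that is corrected for transcript length and allows levels of different genes to be compared, the mean over the libraries was 285 for CD9, 172 for CD163, 116 for MRC1, 66 for CSF1R, 40.0 for AIF1, 29.7 for CD68, 24.4 for ITGAM, 18.6 for CD14, 12.2 for MARCO and 3.48 for TREM2. CD9 stood above 98.3% of all genes and TREM2 above 47.6%. The ranges over libraries of every pair of neighbours in this order overlapped, so that the order is an order of means only. From the lowest to the highest library, CD9 varied 2.14-fold, CSF1R 2.82-fold, MRC1 2.94-fold, CD14 3.04-fold, AIF1 3.39-fold, ITGAM 6.74-fold, CD163 8.68-fold, CD68 11.4-fold, TREM2 22.7-fold and MARCO 226-fold.

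**Figure D1:**
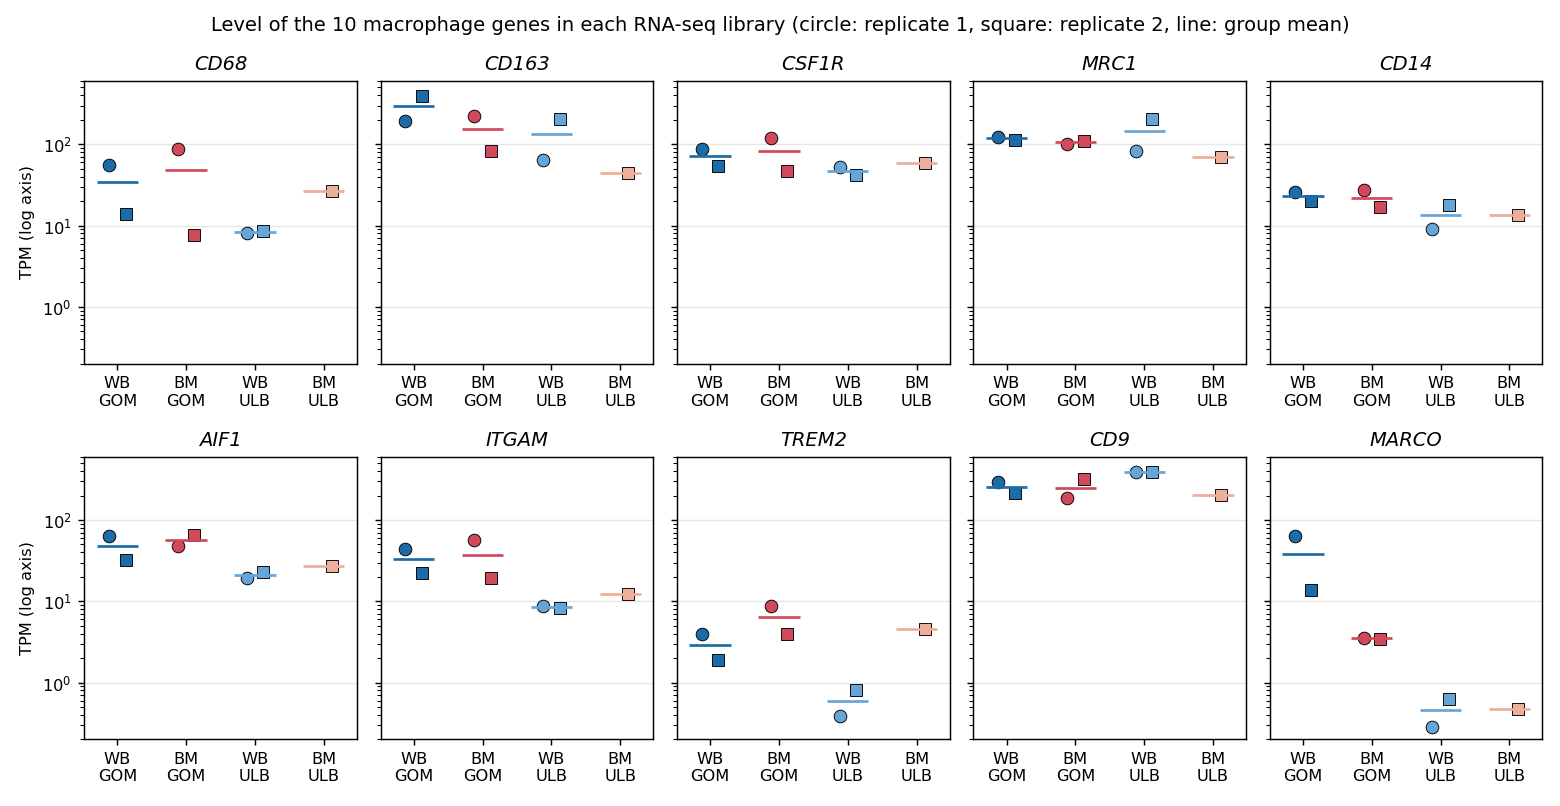
TPM on a log axis for each of the 10 genes, with 1 point per library (circle: replicate 1, square: replicate 2) and a line at the group mean; WB is wild boar, BM is Bama pig, and BM ULB is 1 library. MARCO spans 0.281 to 63.4 TPM and separates the GOM from the ULB, TREM2 is lowest in the 2 wild boar ULB libraries, and the 2 replicates of CD68 in the GOM lie far apart in both breeds.

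Marker genes of other tissues differed between libraries. The summed TPM of 5 liver genes such as ALB was 389 and 1190 in the 2 Bama pig GOM libraries and 110 in the Bama pig ULB library, against 3.96 to 9.36 in the 4 wild boar libraries, and in the ULB ALB passed both thresholds with a log2 fold change of -4.75 ± 0.69 (edgeR, adjusted p = 0.0416). The sum of 3 skeletal muscle genes was 291 in wild boar ULB replicate 1 and at most 6.41 elsewhere, and the sum of 5 smooth muscle genes was 1352 in wild boar GOM replicate 2 and 315 to 672 elsewhere. The adipocyte genes were abundant everywhere, with ADIPOQ at 2387 to 5332 TPM. Total estimated counts ranged from 10833207 to 18627105 per library. The scale also mattered: TPM placed the median of all genes 0.41 log2 units lower in wild boar than in Bama pig GOM (-0.41), whereas CPM scaled by the trimmed mean of M-values (TMM CPM) placed it at 0.01. Tests and fold changes are therefore on the TMM scale, and for the 10 genes and the gene lists a direction that differs on TPM is said. Ranges over the fits that left out a library are given for the results that they moved most.

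MARCO was the gene with the widest range. In wild boar GOM its level was 63.4 TPM in replicate 1 and 13.7 TPM in replicate 2, and in Bama pig GOM it was 3.57 and 3.48 TPM. In the ULB it was 0.281 and 0.627 TPM in wild boar and 0.473 TPM in Bama pig, from only 6, 13 and 9 estimated counts. Thus every GOM library lay above every ULB library, and both wild boar GOM libraries lay above both Bama pig GOM libraries, on TPM and on TMM CPM alike.

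Between the depots of wild boar, MARCO rose in the GOM with a log2 fold change of 6.58 ± 0.78 (SE; edgeR quasi-likelihood F test, adjusted p = 0.00612). This was 1 of the 10 genes past both thresholds there (an adjusted p under 0.05 together with a log2 fold change beyond 1 in size), against 0.979% of 17877 genes called higher in the GOM and 1.37% called in either direction. Leaving out wild boar ULB replicate 1 raised the adjusted p to 0.0655, and limma on log2(TPM + 1) gave 0.119.

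Between the breeds in the GOM, MARCO had a log2 fold change of 3.96 ± 0.68, with an adjusted p of 0.304 in edgeR. DESeq2 gave a log2 fold change of 3.96 with an adjusted p of 1.32e-07, and edgeR with no filter on low values gave 0.0328, so that the call depends on the tool and on the filter. Over the 4 fits that each left out a GOM library its log2 fold change lay between 2.66 and 4.61. The adjusted p in edgeR was 0.847 and 0.265 without Bama pig replicates 1 and 2, and 0.0665 without wild boar replicate 1, none of which was called. Without wild boar replicate 2 it was 4.53e-07, in a fit of 1 wild boar library whose spread came from the 2 Bama pig libraries alone, which were 1.03-fold apart. In the ULB, where counts were near the limit of detection, the breed difference was -0.27 ± 0.97 (edgeR, adjusted p = 0.903). The breed effect in the GOM minus that in the ULB was 4.25 ± 1.18, with an adjusted p of 0.970 in edgeR and of 0.0745 in DESeq2.

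Some genes of neutrophils, platelets and red cells were also at high levels in wild boar GOM. S100A12, abundant in neutrophils and monocytes, was at 697 and 339 TPM in wild boar GOM, 330 and 144 TPM in Bama pig GOM, 235 and 71.0 TPM in wild boar ULB and 61.9 TPM in Bama pig ULB. S100A8, abundant in the same cells, was at 362 and 180 TPM in wild boar GOM and 28.6 and 91.0 TPM in Bama pig GOM. In the ULB S100A8 was at 49.6 and 18.0 TPM in wild boar and at 2.36 TPM in Bama pig. The platelet chemokine PPBP was at 113 and 42.4 TPM in wild boar GOM, 20.9 and 25.9 TPM in Bama pig GOM, and 3.85 to 7.14 TPM in the ULB. The other measured platelet genes did not share this, with GP9 at 0.944 and 0.503 TPM for wild boar against 1.69 and 1.37 TPM for Bama pig GOM, and TUBB1 at 0.113 and 0.118 against 0.135 and 0.109 TPM. The whole neutrophil list, 5 of 8 genes measured, summed to 1061 and 527 TPM in wild boar GOM against 364 and 236 TPM in Bama pig GOM, but its granule genes were low, with MMP8 at 0.0519 to 4.08 TPM and LTF at 0.0285 to 1.96 TPM over all libraries, and MMP9 was at 1.53 and 0.881 TPM for wild boar against 4.77 and 0.885 TPM for Bama pig GOM (all 3 named after their values were seen). The erythroid list, 4 of 7 genes measured, summed to 77.4 and 101.6 TPM against 1.35 and 9.70 TPM, and its leading gene AHSP, a chaperone of haemoglobin, was listed at 0 in Bama pig GOM replicate 1. In the ULB the erythroid list summed to 18.5 and 13.4 TPM in wild boar and 1.85 TPM in Bama pig. The neutrophil list summed there to 287 and 93.1 TPM and to 68.9 TPM. Higher sums in wild boar were thus not particular to the GOM, whereas MARCO was near the limit of detection in the ULB. The part of these cells in the MARCO values was not tested.

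The mesothelium, the lining of the abdominal cavity that covers the omentum, was a further difference between depots. Its 4 measured genes (of 8) summed to 119 to 456 TPM in the 4 GOM libraries and to 3.00 to 17.1 TPM in the 3 ULB libraries. KRT8, an epithelial keratin, rose in wild boar GOM against ULB with a log2 fold change of 5.24 ± 1.01 (edgeR, adjusted p = 0.0453). WT1, a mesothelial transcription factor, was at 72.9 and 19.9 TPM in wild boar GOM, listed at 0 in wild boar ULB replicate 1 and at 0.103 TPM in replicate 2, and BNC1, another mesothelial factor, was at 13.8 and 5.98 TPM in wild boar GOM and listed at 0 in both wild boar ULB libraries. The remaining measured gene, KRT18, named after its values were seen, overlapped between the depots. It was at 1.04 to 8.41 TPM in the GOM and at 0.353 to 6.46 TPM in the ULB. KRT8, WT1 and BNC1 thus separated the depots and KRT18 did not. The part of the mesothelial genes in the depot differences of the macrophage genes was not tested. Because these are bulk samples, fewer cells of a type and less RNA per cell cannot be told apart in any of the comparisons.

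CD163, the haemoglobin scavenger receptor, was at 196 and 388 TPM in wild boar GOM and at 224 and 82.8 TPM in Bama pig GOM. In the ULB it was at 64.5 and 203 TPM in wild boar and at 44.7 TPM in Bama pig. The breeds overlapped in the GOM on TPM, where Bama pig replicate 1 lay above wild boar replicate 1, but not on TMM CPM, where wild boar had 549 and 1280 and Bama pig 430 and 173. The log2 fold change was 1.60 ± 0.64 in the GOM (edgeR, adjusted p = 0.616) and 1.42 ± 0.83 in the ULB (edgeR, adjusted p = 0.423). Neither passed the threshold, and the estimates of the depots differed by 0.18 ± 0.99. The fits that left out a GOM library gave 0.83 to 2.39 in the GOM, and those that left out a wild boar ULB library 0.50 to 1.98 in the ULB.

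MRC1, the mannose receptor, varied less. In the GOM it was at 124 and 113 TPM in wild boar and 101 and 111 TPM in Bama pig, and in the ULB at 83.1 and 207 TPM in wild boar and 70.4 TPM in Bama pig. Both wild boar libraries lay above all Bama pig libraries of the same depot on either scale, by a small margin in the GOM on TPM. The log2 fold change was 0.75 ± 0.40 in the GOM (edgeR, adjusted p = 0.632) and 0.90 ± 0.53 in the ULB (edgeR, adjusted p = 0.429), and 0.17 in the GOM with limma on log2(TPM + 1). The ULB value was 0.21 without wild boar ULB replicate 2 and 1.36 without replicate 1. Between the depots of wild boar it was -0.01 ± 0.41, because wild boar ULB replicate 2 was the highest library and wild boar ULB replicate 1 lay below both GOM libraries.

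The other resident-type genes, 7 of 8 measured, had positive log2 fold changes in 7 of 7 genes in the GOM, with a median of 1.08 beside -0.01 over all genes, and 0 of 7 were called. On TPM 6 of 7 were positive, since MAF, a transcription factor, was at 103 and 50.3 TPM for wild boar against 108 and 61.5 TPM for Bama pig GOM. Genes of other cell types lay on the same side in this comparison: 6 of 6 fibroblast genes were positive with a median of 0.73, 4 of 6 on TPM, and 5 of 5 smooth muscle genes with a median of 2.15, 4 of them at an unadjusted p below 0.05 beside 8.0% of all genes. Their part in the resident-type values was not tested. In the ULB 5 of 7 were positive, with a median of 0.67 beside 0.00 over all genes, and again 0 were called. LYVE1, the hyaluronan receptor, was at 122 and 150 TPM in wild boar GOM and 92.9 and 101 TPM in Bama pig GOM, with a log2 fold change of 1.09 ± 0.39 (edgeR, adjusted p = 0.611). FOLR2, a folate receptor of resident macrophages, had 1.15 ± 0.41 (edgeR, adjusted p = 0.616), and CD209, a lectin, 1.08 ± 0.52 (edgeR, adjusted p = 0.630). In the ULB CD209 had -1.32 ± 0.57 (edgeR, adjusted p = 0.327). These genes, like CD163 and MRC1, thus had estimates on the wild boar side in the GOM that did not pass the test. On TPM the levels overlapped for CD209, at 275 and 77.7 TPM in wild boar and 125 and 114 TPM in Bama pig.

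Of the genes of haem and iron handling that work with CD163, 6 of 8 were measured, 0 were called by edgeR in either depot, and 3 of 6 had positive estimates in the GOM, 2 of 6 on TPM. The iron store FTL was at 1732 and 1983 TPM in wild boar GOM and 1272 and 2050 TPM in Bama pig GOM. The iron exporter SLC40A1 was at 80.3 and 108 TPM against 74.2 and 72.1 TPM, and haem oxygenase HMOX1 was at 25.4 and 25.1 TPM against 73.3 and 9.12 TPM. SLC40A1 had a log2 fold change of 0.98 ± 0.44 (edgeR, adjusted p = 0.626). HPX, the haem-binding protein of plasma that the liver makes, was at 0.381 and 0.468 TPM for wild boar GOM, against 7.48 and 43.9 TPM for Bama pig GOM, and at 0.111 and 0.170 TPM for wild boar ULB against 3.04 TPM for Bama pig ULB, and DESeq2 called it lower in wild boar in both depots (adjusted p = 2.95e-08 and 0.0105). The biliverdin reductase BLVRB was at 7.90 and 6.08 TPM against 13.9 and 12.8 TPM in the GOM, with a log2 fold change of -0.36 ± 0.52 (edgeR, adjusted p = 0.844). HPX and BLVRB were named after their values were seen, and in HPX the high libraries were those in which the liver genes were high.

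TREM2 was the least abundant of the 10 genes. It was at 3.98 and 1.87 TPM in wild boar GOM, 8.79 and 3.99 TPM in Bama pig GOM, 0.388 and 0.811 TPM in wild boar ULB and 4.53 TPM in Bama pig ULB. These levels came from 73 and 42, 160 and 60, 7 and 14, and 69 estimated counts. In the ULB both wild boar libraries lay well below the Bama pig library, and in the GOM the levels of the breeds nearly touched on TPM and overlapped on TMM CPM.

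In the ULB, TREM2 had a log2 fold change of -3.05 ± 0.77 in wild boar against Bama pig, with an adjusted p of 0.190 in edgeR, and -3.09 with an adjusted p of 0.0279 in DESeq2. In the GOM it was -0.55 ± 0.65 (edgeR, adjusted p = 0.801). The effect in the GOM minus that in the ULB was 2.52 ± 0.99 (edgeR, adjusted p = 0.970). Between the depots of wild boar, TREM2 had 2.52 ± 0.69 (edgeR, adjusted p = 0.143), and DESeq2 called it (adjusted p = 0.0208). The ULB comparison rests on 1 Bama pig library, whose spread was taken to equal that of the other groups.

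CD9 behaved unlike TREM2. It was at 291 and 217 TPM in wild boar GOM, 184 and 317 TPM in Bama pig GOM, 389 and 393 TPM in wild boar ULB and 204 TPM in Bama pig ULB. The breeds overlapped in the GOM on TPM, and both wild boar ULB libraries lay above the Bama pig ULB library and above both wild boar GOM libraries. The log2 fold change of breed was 0.58 ± 0.43 in the GOM (edgeR, adjusted p = 0.703) and 0.83 ± 0.47 in the ULB (edgeR, adjusted p = 0.414), and that of depot in wild boar was -0.39 ± 0.37 (edgeR, adjusted p = 0.672). The fits that left out a GOM library gave 0.19 to 1.11 for breed in the GOM.

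Among 10 other lipid-associated genes, 0 were called by edgeR in either depot. The median log2 fold change was 0.25 in the GOM and -0.28 in the ULB, with 6 of 10 positive in the GOM, 3 of 10 on TPM, and 3 of 10 in the ULB on either scale. FABP5, a fatty acid binding protein, was at 519 and 482 TPM in wild boar GOM and 1578 and 840 TPM in Bama pig GOM, with a log2 fold change of -0.66 ± 0.46 (edgeR, adjusted p = 0.688). The lysosomal membrane protein CD63 had 0.60 ± 0.56 (edgeR, adjusted p = 0.755) and the protease CTSB 0.38 ± 0.47 (edgeR, adjusted p = 0.815), although CTSB was at 581 and 388 TPM for wild boar against 551 and 555 TPM for Bama pig GOM. SPP1 (osteopontin), named here after its values were seen, was at 44.0 and 21.4 TPM in wild boar GOM, 195 and 119 TPM in Bama pig GOM, 22.0 and 56.2 TPM in wild boar ULB and 230 TPM in Bama pig ULB. Its log2 fold change was -1.70 ± 0.43 in the GOM (edgeR, adjusted p = 0.564) and -2.70 ± 0.54 in the ULB (edgeR, adjusted p = 0.118, DESeq2 adjusted p = 0.00154). SPP1 thus had its lower levels in wild boar in both depots, and TREM2 in the ULB, while TREM2 overlapped between the breeds in the GOM on TMM CPM. CD9 and CD63 had estimates on the other side of zero.

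The adaptor TYROBP, through which TREM2 signals, was at 270 and 195 TPM in wild boar GOM, 236 and 134 TPM in Bama pig GOM, 82.5 and 134 TPM in wild boar ULB and 181 TPM in Bama pig ULB. Its breed difference was 0.92 ± 0.39 in the GOM (edgeR, adjusted p = 0.623) and -0.87 ± 0.43 in the ULB (edgeR, adjusted p = 0.364), with 1.80 ± 0.56 between the depots (edgeR, adjusted p = 0.970). Of the 5 measured genes of the adaptor and signalling list, edgeR called 0 in any of the 4 comparisons. All 5 were, for the depots of wild boar, at an unadjusted p below 0.05 on the GOM side, beside 14.3% of all genes in either direction. DESeq2 called 1 of them, TYROBP (adjusted p = 0.0313), beside 3.12% of all genes called higher.

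**Figure D2:**
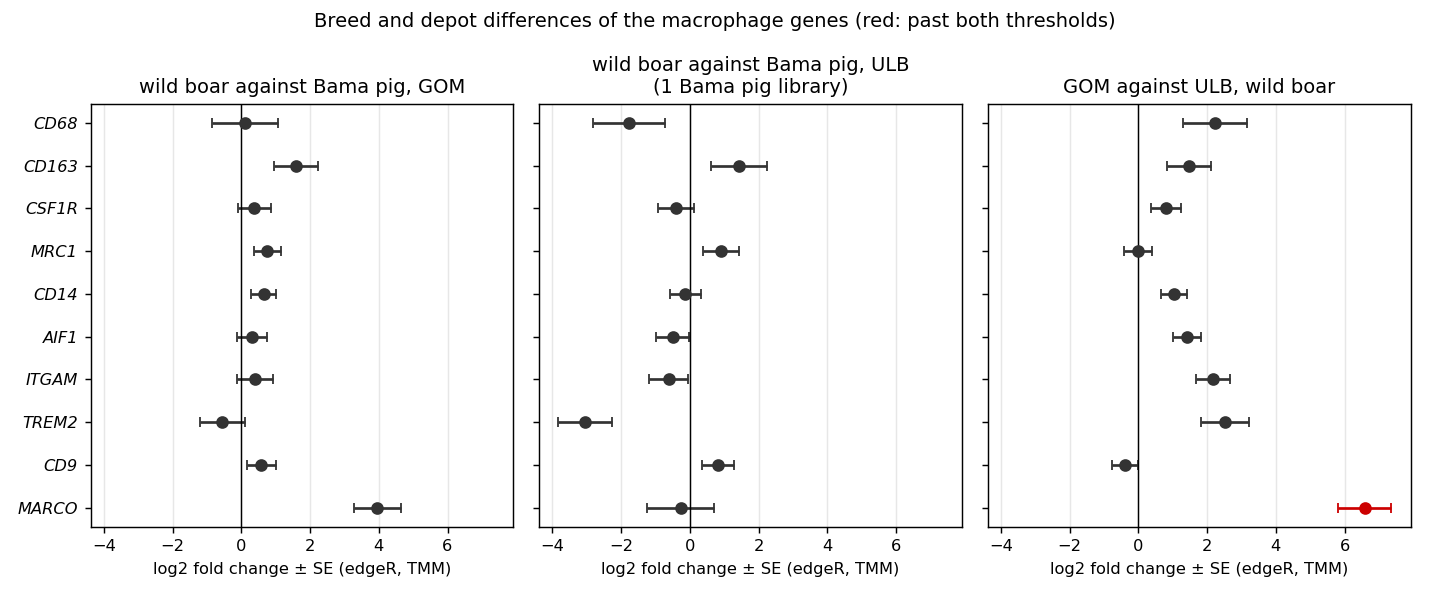
Log2 fold change with its standard error from edgeR on the TMM scale for each gene, for wild boar against Bama pig in the GOM and in the ULB and for the GOM against the ULB of wild boar; red marks a gene past both thresholds. MARCO in the depot comparison, at 6.58, is the red point, and the 7 genes CD68, CD163, CSF1R, CD14, AIF1, ITGAM and TREM2 lie between 0.80 and 2.52 on the GOM side.

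The ratio of resident to lipid-associated markers depended on the markers that were set against each other. The sum of CD163 and MRC1 over the sum of TREM2 and CD9, in TPM, was 1.08 and 2.29 for wild boar GOM, 1.68 and 0.604 for Bama pig GOM, 0.379 and 1.04 for wild boar ULB and 0.551 for Bama pig ULB. The breeds overlapped in both depots, and the depots of wild boar did not. On the log2 scale the difference between the breed means was 0.64 in the GOM, less than the pooled SD of 0.92 between replicates, and 0.19 in the ULB, where the pooled SD was 1.03. The difference of the wild boar depots was 1.33 (pooled SD 0.91). Leaving out a library moved the GOM difference between -0.09 and 1.38 and the ULB difference between -0.54 and 0.92. CD9 made up 95.4% to 99.9% of the lipid-associated sum, so that this ratio compares CD163 and MRC1 with CD9. With the mean of log2(TPM + 1) in place of the sum, the breeds no longer overlapped, with a difference of 1.00 in the GOM (pooled SD 0.58) and 1.55 in the ULB (pooled SD 0.90).

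CD163 over TREM2 alone gave 49.3 and 207 for wild boar GOM, 25.4 and 20.8 for Bama pig GOM, 166 and 250 for wild boar ULB and 9.88 for Bama pig ULB. All 4 wild boar libraries lay above all 3 Bama pig libraries, but the share of other gene pairs that separate in this way was not computed. The wild boar ULB ratios rest on 7 and 14 estimated counts of TREM2. The log2 difference was 2.14 in the GOM (pooled SD 1.05) and 4.37 in the ULB (pooled SD 0.41, from the wild boar libraries). For the wild boar depots it was -1.01, the opposite direction to the ratio of sums, with overlapping libraries. MRC1 over TREM2 likewise was 31.2 and 60.5, 11.4 and 27.8, 214 and 255, and 15.5 in the same order of libraries. No test was made of these ratios, and an exact permutation test of 2 against 2 libraries cannot give a two-sided p below 0.333. Being ratios within a library, they cannot tell which of the genes differed between the groups.

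**Figure D3:**
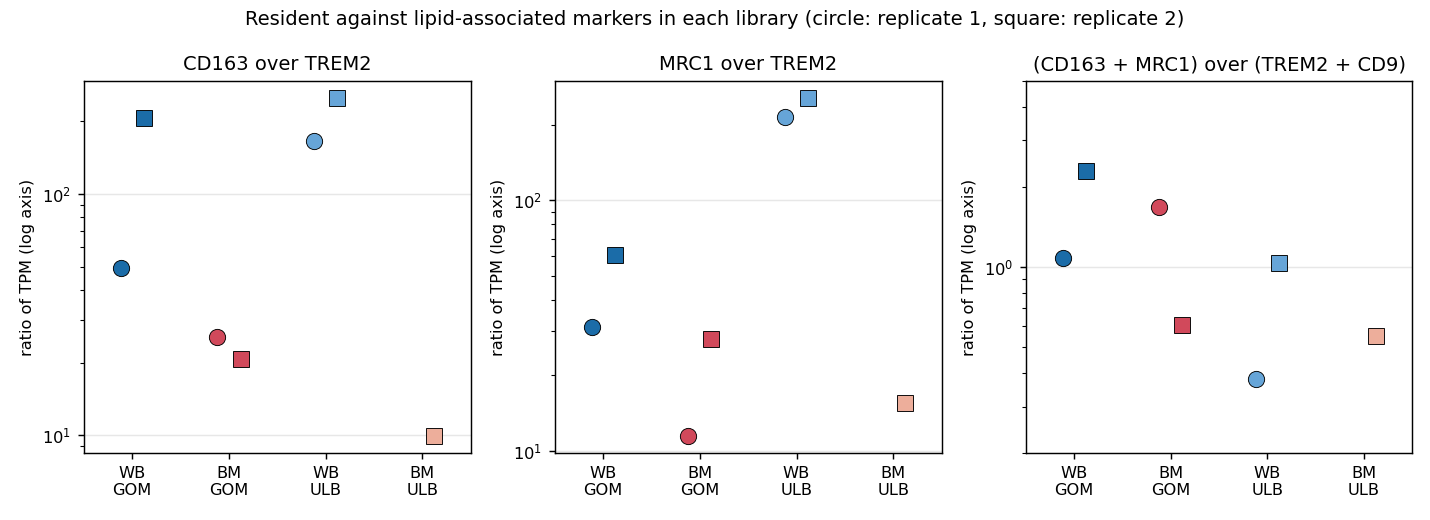
Ratio of TPM on a log axis in each library for CD163 over TREM2, MRC1 over TREM2, and the sum of CD163 and MRC1 over the sum of TREM2 and CD9 (circle: replicate 1, square: replicate 2; WB, wild boar; BM, Bama pig). The first ratio is 49.3 to 250 in wild boar and 9.88 to 25.4 in Bama pig, and the third overlaps between the breeds in both depots.

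Of the markers of the whole macrophage population, CSF1R was at 88.4 and 54.5 TPM in wild boar GOM, 118 and 47.5 TPM in Bama pig GOM, 53.2 and 41.8 TPM in wild boar ULB and 58.8 TPM in Bama pig ULB. Its breed difference was 0.38 ± 0.49 in the GOM (edgeR, adjusted p = 0.820) and -0.40 ± 0.53 in the ULB (edgeR, adjusted p = 0.709). The sign in the GOM was the other way round with limma on log2(TPM + 1), at -0.11. Its ligands varied between replicates and overlapped between the breeds in the GOM on TPM. CSF1 was at 26.1 and 16.1 TPM in wild boar GOM and 43.1 and 17.0 TPM in Bama pig GOM, and IL34 at 20.3 and 10.2 TPM against 16.5 and 33.3 TPM. In the list of CSF1 ligands and receptors, 2 of 6 genes had positive estimates in the GOM, 0 of 6 on TPM. Of the 6 measured ligands and receptors of this list, edgeR called 0 in any of the 4 comparisons, and DESeq2 called 1, CSF2RB, the shared chain of the receptors of IL3, IL5 and CSF2, higher in the GOM of wild boar than in the ULB (adjusted p = 0.0430).

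AIF1 was at 64.3 and 32.4 TPM in wild boar GOM, 47.9 and 65.5 TPM in Bama pig GOM, 19.3 and 22.8 TPM in wild boar ULB and 27.5 TPM in Bama pig ULB. ITGAM was at 44.0 and 22.4 TPM, 56.0 and 19.2 TPM, 8.75 and 8.31 TPM, and 12.2 TPM in the same order. Both genes overlapped between breeds in the GOM, lay lower in wild boar than in Bama pig ULB, and lay higher in both wild boar GOM libraries than in both wild boar ULB libraries. Between breeds in the GOM the log2 fold change was 0.31 ± 0.44 for AIF1 (edgeR, adjusted p = 0.837) and 0.41 ± 0.53 for ITGAM (edgeR, adjusted p = 0.821), and on the TPM scale both turned, to -0.29 and -0.062 with limma. In the ULB it was -0.49 ± 0.48 for AIF1 (edgeR, adjusted p = 0.613) and -0.62 ± 0.57 for ITGAM (edgeR, adjusted p = 0.595). Between the depots of wild boar, ITGAM had a log2 fold change of 2.17 ± 0.49 (edgeR, adjusted p = 0.0836) and AIF1 1.41 ± 0.40 (edgeR, adjusted p = 0.153), and DESeq2 called both, with adjusted p of 0.00208 and 0.0412. ITGAM was also called by edgeR with no filter on low values (adjusted p = 0.0183) and with the 4 wild boar libraries alone (adjusted p = 0.0302). ITGB2, the beta chain that pairs with ITGAM, rose in the GOM of wild boar with a log2 fold change of 1.82 ± 0.33 (edgeR, adjusted p = 0.0363), from 6.51 and 8.60 TPM in the ULB to 27.0 and 18.4 TPM in the GOM.

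CD14 was at 25.9 and 19.9 TPM in wild boar GOM, 27.5 and 16.7 TPM in Bama pig GOM, 9.05 and 17.8 TPM in wild boar ULB and 13.4 TPM in Bama pig ULB. Its breed difference was 0.65 ± 0.37 in the GOM (edgeR, adjusted p = 0.645) and -0.14 ± 0.46 in the ULB (edgeR, adjusted p = 0.893). In the list of CD14 and toll-like receptors, 9 of 9 genes were measured and 0 were called by edgeR. LY96, which carries lipopolysaccharide to TLR4, was at 59.8 and 117 TPM in wild boar ULB and at 16.3 TPM in Bama pig ULB, with a log2 fold change of 2.31 ± 0.61 (edgeR, adjusted p = 0.198, DESeq2 adjusted p = 0.0155). TLR4 itself had 0.28 ± 0.39 in the ULB (edgeR, adjusted p = 0.721).

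CD68 differed widely between replicates in the GOM. It was at 55.3 and 14.0 TPM in wild boar GOM and at 87.6 and 7.69 TPM in Bama pig GOM, a difference of 3.93-fold and 11.4-fold between the 2 libraries of a group. In Bama pig GOM this was the largest ratio of the 10 genes, and in wild boar GOM MARCO had a larger one, 4.63-fold. In the ULB it was at 8.15 and 8.70 TPM in wild boar and 26.6 TPM in Bama pig. The breed difference in the GOM was 0.11 ± 0.95 (edgeR, adjusted p = 0.981) and ranged from -1.01 to 2.62 over the fits that left out a library. In the ULB it was -1.77 ± 1.06 (edgeR, adjusted p = 0.432). No statement on CD68 in the GOM can be made beyond this spread.

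Over the 10 genes, edgeR called 0 in the GOM, where 0.0241% of 16615 genes were called, and 0 in the ULB, where 0.252% of 17877 genes were called. At an unadjusted p below 0.05 there were 2 (CD163 and MARCO) in the GOM, beside 8.0% of all genes, and 1 (TREM2) in the ULB, beside 14.9%. DESeq2 called 1 in the GOM (MARCO, higher in wild boar), beside 1.01% of all genes, and 1 in the ULB (TREM2, lower in wild boar), beside 2.34%. For the difference of the breed effects between the depots, edgeR called 0 of 10 and 0.00% of 17877 genes, with 2 of 10 (MARCO and TREM2) at an unadjusted p below 0.05 beside 4.86% of all genes, and DESeq2 called 0 of 10 beside 0.291%. The median log2 fold change of the 10 genes was 0.49 in the GOM and -0.34 in the ULB, beside -0.01 and 0.00 over all genes.

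The GOM libraries of the breeds did not overlap for 5 genes on TMM CPM, all higher in wild boar (CD163, MRC1, CD14, CD9 and MARCO), where 19.7% of all genes were higher without overlap and 21.5% lower. On TPM 2 genes were higher (MRC1 and MARCO), beside 3.98%, and 1 was lower (TREM2), beside 49.5%. In the ULB, 3 genes were higher in wild boar (CD163, MRC1 and CD9) and 5 were lower (CD68, CSF1R, AIF1, ITGAM and TREM2) on either scale, beside 39.8% and 42.6% on TMM CPM and 43.4% and 38.3% on TPM. With 1 Bama pig ULB library, such a separation is frequent among all genes, and the counts of the macrophage genes are near those shares.

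Between the depots of wild boar, 8 genes were higher in the GOM without overlap on TMM CPM, beside 27.4% of all genes, and CD9 was lower, beside 23.5%. On TPM the number higher was 7, since CD163 overlapped, beside 16.3%, and CD9 was again lower, beside 32.8%. At an unadjusted p below 0.05 edgeR listed 7 of the 10 genes (CD68, CD163, CD14, AIF1, ITGAM, TREM2 and MARCO), all on the GOM side, beside 14.3% of all genes. Besides the values above, the log2 fold change was 2.21 ± 0.93 for CD68 (edgeR, adjusted p = 0.324), 1.46 ± 0.64 for CD163 (edgeR, adjusted p = 0.347), 1.03 ± 0.38 for CD14 (edgeR, adjusted p = 0.263) and 0.80 ± 0.44 for CSF1R (edgeR, adjusted p = 0.462). DESeq2 called 4 of the 10 (AIF1, ITGAM, TREM2 and MARCO), all higher in the GOM, beside 3.12% of all genes called higher and 5.38% called in either direction.

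The 14 other macrophage genes measured, of 16, had positive log2 fold changes in 14 of 14 for GOM against ULB of wild boar, with a median of 1.22 beside 0.04 over all genes, and 13 of 14 were positive on TPM. EdgeR called 1 and DESeq2 5, all higher, beside 0.979% and 3.12% of all genes called higher. Genes of other immune cells lay on the same side: 6 of 6 T and NK cell genes were positive with a median of 1.41, 5 of them at an unadjusted p below 0.05 beside 14.3% of all genes, and 5 of 5 dendritic cell genes with a median of 1.24, and their part in the macrophage values was not tested. VSIG4, a complement receptor of resident macrophages, rose from 31.4 and 18.0 TPM in wild boar ULB to 155 and 66.4 TPM in wild boar GOM, with a log2 fold change of 2.34 ± 0.45 (edgeR, adjusted p = 0.0453). C1QC, a chain of complement C1q, was at 233 and 162 TPM in the ULB and at 885 and 390 TPM in the GOM (log2 fold change of 1.88 ± 0.44, edgeR, adjusted p = 0.0905), and C1QB had 2.18 ± 0.50 (edgeR, adjusted p = 0.0864). The protease CTSS had 0.81 ± 0.38 (edgeR, adjusted p = 0.382). Between breeds in the GOM, 7 of the 14 were positive and 7 negative, 5 positive on TPM, with a median of 0.00, and 0 were called by either tool. In the ULB 4 were positive and 10 negative, with a median of -0.59, and 0 were called by either tool.

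**Figure D4:**
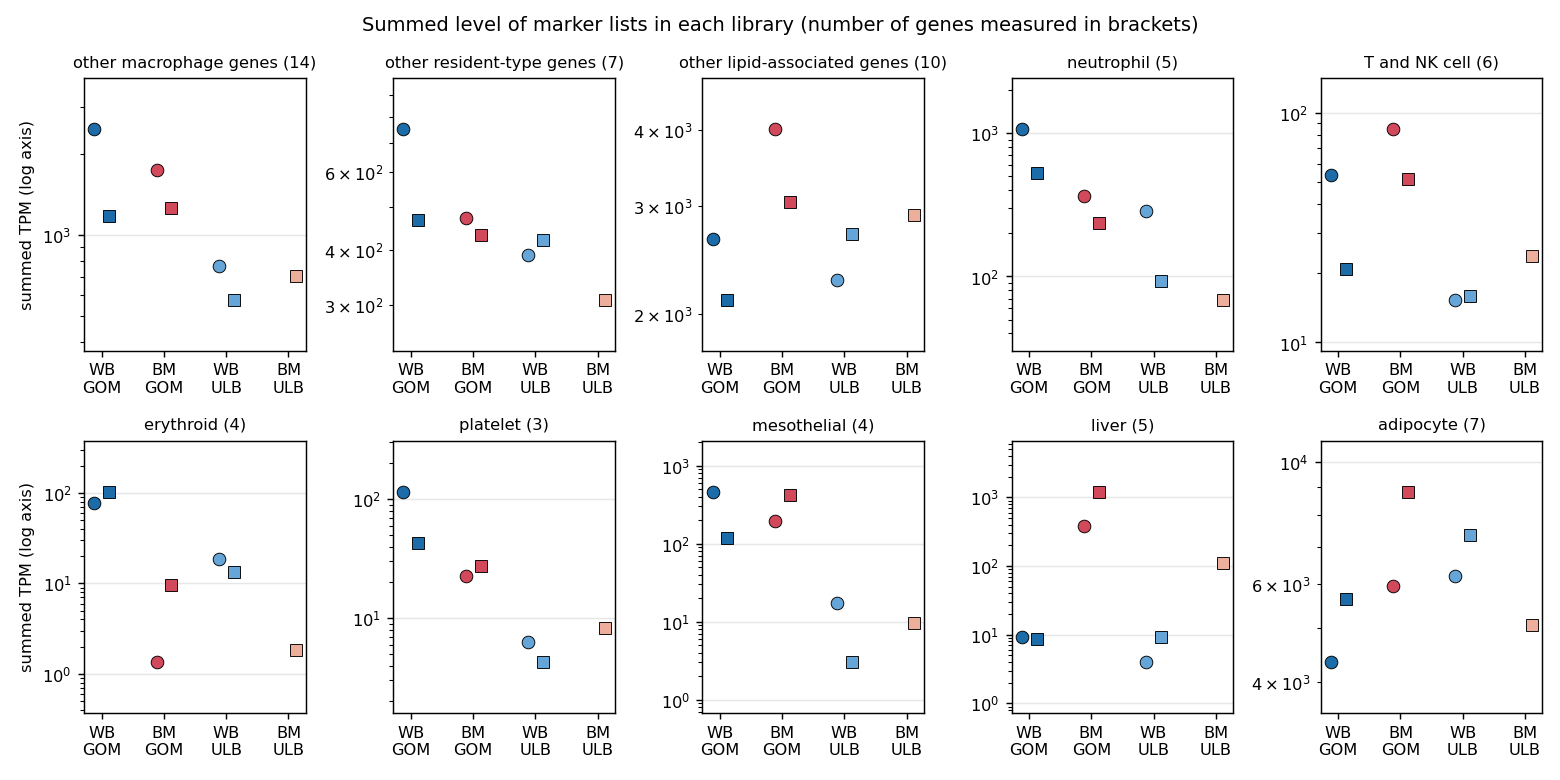
Summed TPM on a log axis of marker lists in each library (circle: replicate 1, square: replicate 2; WB, wild boar; BM, Bama pig; the number of measured genes stands in brackets). The macrophage sum is 1175 to 2468 in the GOM and 576 to 769 in the ULB, the mesothelial sum separates the depots, and the liver sum separates the breeds.

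The genes whose pattern over the 7 libraries was most like that of CD163 were MRPL52 (Pearson r of log2(TPM + 1) of 0.95), CCN3 (0.95), MOCS1 (0.94), FOSL2 (0.94) and PDXK (0.94), out of 11516 genes with a symbol and a mean TPM of at least 1. MRPL52 was at 36.0 and 56.5 TPM in wild boar GOM, 34.1 and 28.3 TPM in Bama pig GOM, 26.1 and 40.2 TPM in wild boar ULB and 17.8 TPM in Bama pig ULB. For TREM2 they were CTDSP1 (0.99), GIPC2 (0.99), MED27 (0.99), UNC5B (0.99) and TSC2 (0.99). For MARCO, added after its values were seen, they were HENMT1 (0.99), CPAMD8 (0.98), CDCP1 (0.97), PPBP (0.97) and ALOX15 (0.96). With 7 libraries that share depth and tissue makeup, high values of r arise among the best of many genes, and they are given as a description.

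Hi-C, which reads how the genome folds, was available for 7 libraries with the same layout, from nuclei of the adipocyte-containing upper layer after centrifugation. Its values for macrophage genes are thus those of a fraction in which macrophages need not be common. The sign of the first principal component (PC1) of the contact map, given per 20-kb bin, assigns a bin to the active compartment A (positive) or to the inactive compartment B (negative). The bin of the start site was in A in all 7 libraries for 7 genes: CD68, CSF1R, CD14, AIF1, ITGAM, TREM2 and CD9. Of the start-site bins of 18725 autosomal protein-coding genes, 72.0% were in A in all 7 libraries.

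The remaining 3 genes were CD163, MARCO and MRC1. CD163, among the most abundant of the 10 transcripts, lay in B in all 7 libraries, with PC1 of -45.2 and -36.4 for wild boar GOM, -28.5 and -37.0 for Bama pig GOM, -38.7 and -44.8 in wild boar ULB and -33.7 in Bama pig ULB. MARCO lay in B in all 7 as well, with -9.17 and -7.92 for wild boar GOM, -13.4 and -15.2 for Bama pig GOM, -2.72 and -3.24 in wild boar ULB and -3.52 in Bama pig ULB. All values of MARCO had the same sign, so its compartment was the same in both breeds and depots. Of all bins, 42.5% had a lowest PC1 over the 7 libraries below that of MARCO, and 12.1% below that of CD163. The differences in PC1 of MARCO between libraries were not compared with those of other bins.

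MRC1 was the gene with a change of sign. Its PC1 was 1.61 and 10.99 for wild boar GOM, against -1.95 and -9.93 for Bama pig GOM, and 8.48, 6.77 and 9.25 in the ULB libraries. Its start site thus met the rule for a switch from B in Bama pig to A in wild boar in the GOM. Of all start-site bins, 1.85% switched in the GOM in either direction. In the ULB 0 of 10 genes switched. The values lie close to zero, and the switch was lost when PC1 was centred on the median of each chromosome and when PC1 was averaged over the 7 bins of the gene. The replicates correlated along chromosome 10 with r = 0.60 for wild boar GOM and r = 0.74 for Bama pig GOM. Its RNA level in the GOM differed by 0.75 ± 0.40 on the log2 scale between the breeds (edgeR, adjusted p = 0.632).

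**Figure D5:**
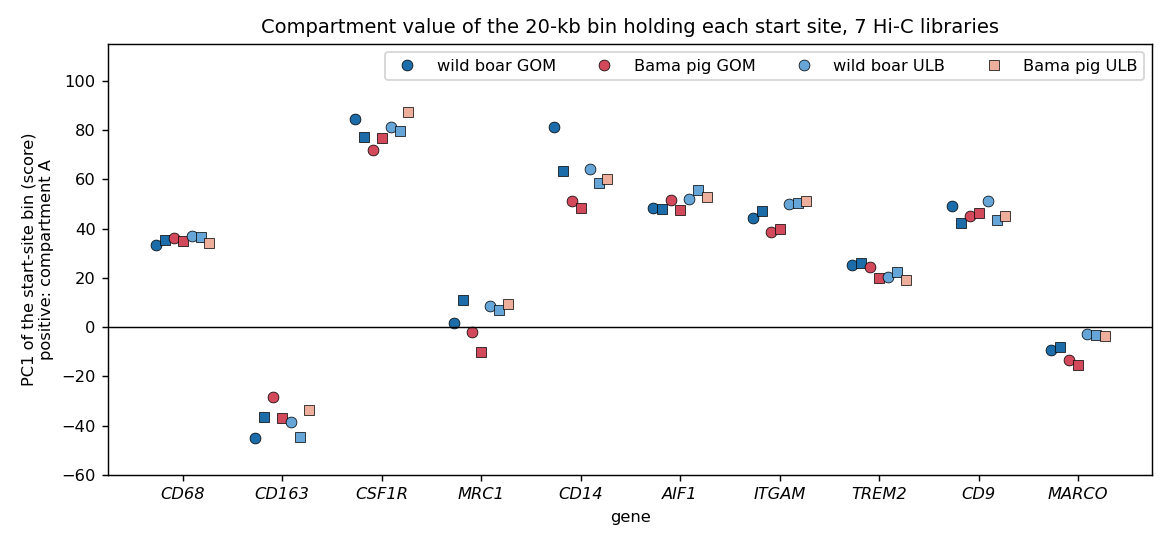
PC1 of the 20-kb bin that holds the start site of each gene in the 7 Hi-C libraries (circle: replicate 1, square: replicate 2); values above zero are compartment A. CD163 lies between -45.2 and -28.5 in all libraries, MARCO below zero in all, and MRC1 on both sides of zero.

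Topologically associating domains (TADs), stretches of chromosome that contact themselves more than their neighbours, were given as 1 list per breed and depot. ITGAM lay in a TAD of 200 kb with the same ends in all 4 lists. The TAD of MARCO measured 460 kb in wild boar GOM, 420 kb in Bama pig GOM, 460 kb in wild boar ULB and 440 kb in Bama pig ULB, and that of CD163 measured 320, 280, 300 and 260 kb in the same order. CD9 lay in a TAD of 220 kb in 3 lists and of 1020 kb in Bama pig GOM, and MRC1 in one of 400 kb in wild boar GOM, against 620 kb in Bama pig GOM. TREM2 lay in no TAD of the wild boar ULB list and in TADs of 520, 540 and 500 kb in wild boar GOM, Bama pig GOM and Bama pig ULB. Since replicates were merged before TADs were called, these differences have no replicate error.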

How the data were processed

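RNA-seq of whole adipose tissue (7 libraries) and Hi-C (7 libraries) were used, and groups came from the sample labels. Ribosomal RNA was depleted and stranded libraries were sequenced. With Kallisto, the Sscrofa11.1 genome and Ensembl gene models, the authors made and deposited estimated counts (expected counts) of protein-coding genes, not normalized across libraries, and TPM values. For Hi-C, the authors deposited PC1 as a score for each bin of 20 kb after normalization of the contact maps, and TAD positions from merged replicates. Kallisto and its annotation were not rerun. The deposited PC1 values carry the name of an A-B index, but average 0 on each chromosome, and were read as PC1, of which only the sign decides the compartment.

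Symbols came from a table that matched 14821 of 21280 Ensembl IDs. Estimated counts were rounded and tested in R 4.3.3 with edgeR 4.0.16 (quasi-likelihood F test, TMM, Benjamini-Hochberg), among genes with a TPM above 0.1 in all libraries of a group. All 10 macrophage genes passed. GOM was fitted on 4 libraries. ULB, the difference of the breed effects and the wild boar depots were contrasts over all 7. These contrasts did not model the animal. A gene was called at an adjusted p under 0.05 with a log2 fold change beyond 1 in size. The SE is the log2 fold change over the root of F. DESeq2 1.42.0, limma 3.58.1, other filters and scalings, and the fits that left out a library or added the replicate number were alternatives. The edgeR and DESeq2 tests were also run on simulated counts with the same dispersion for all genes. That run does not cover genes with wide gaps between replicates, such as CD68. Start sites and upstream sequence came from the RefSeq annotation and genome of Sscrofa11.1, whose 18 autosomes have the lengths of the Hi-C files. A bin counted as switched in a depot when every wild boar library had the opposite sign of PC1 to every Bama pig library. Values were drawn with matplotlib 3.10.9 and computed with Python 3.11.15, numpy 2.4.6 and pandas 2.3.3.

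The 10 genes, the gene lists and the tests were chosen with earlier results of these data known. Named are the 10 genes, from each list at most 3 measured genes with the highest mean TPM and any past both thresholds, and for CD163 and TREM2 the 5 genes of most similar pattern. Total counts of 10833207 to 18627105 leave TREM2 and MARCO with 6 to 160 counts in most libraries. The other Bama pig ULB library of the study, replicate 1, was not analysed here for RNA-seq or PC1. Its Hi-C reads may enter the Bama pig ULB list of TADs, which came from merged replicates.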

Additional observations from a re-analysis of the deposited data

How the results depend on the processing

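The number of the 10 genes called between breeds in the GOM, 0, became 1 (MARCO) with DESeq2 and with no filter on low values, and ranged from 0 to 1 when a library was left out. In the ULB it became 1 (TREM2) with DESeq2. For the wild boar depots the number, 1, became 4 with DESeq2, 2 with no filter and 2 with the 4 wild boar libraries alone (each with ITGAM) and 0 with limma on log2(TPM + 1), and ranged from 0 to 1 when a library was left out. For the difference between depots it stayed 0 under all alternatives. With the replicate number as a block it was 0 in the GOM, 0 in the ULB and 2 (MARCO and ITGAM, the latter at an adjusted p of 0.0297 in edgeR) between the wild boar depots, and all called genes rose from 4 to 15, from 45 to 91 and from 245 to 316. In the same order, all called genes numbered 167, 418 and 961 with DESeq2, and 26, 197 and 528 with no filter. With the 4 wild boar libraries alone they numbered 318 of 16183 between the depots. The calls thus rose among all genes as well. The replicate numbers share no stated origin: deviations of same-numbered libraries correlated at 0.19, 0.20 and -0.11. The causes were not tested. Leaving out the Bama pig ULB library could not be run, because that group then has none.

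The log2 ratio of resident to lipid-associated markers differed by 0.64 in the GOM, 0.19 in the ULB and 1.33 between wild boar depots. It differed by 2.14 in the GOM, 4.37 in the ULB and -1.01 between depots for CD163 over TREM2 alone, and by 1.00 in the GOM, 1.55 in the ULB and 0.25 between depots for means of log2(TPM + 1), since these forms give CD9 less weight. It ranged from 0.60 to 2.06 between depots when a library was left out. The number of genes switched in the GOM, 1, became 0 with PC1 centred on the chromosome median and 0 with PC1 averaged over a gene. The genes higher in wild boar GOM without overlap numbered 2 on TPM, chosen as an alternative after seeing the data, and those lower 1.

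Signs turned for small log2 fold changes. With limma in the GOM CSF1R was at -0.11, AIF1 at -0.29 and ITGAM at -0.062, and the difference between depots of CD163 was -0.32 with limma and -0.19 with the block. MRC1 between depots was 0.077 with the block. When a library was left out, the GOM values ranged from -1.01 to 2.62 for CD68, -0.089 to 1.08 for CSF1R, -0.11 to 0.63 for AIF1, -0.13 to 1.28 for ITGAM and -1.04 to 0.037 for TREM2, the ULB values from -0.59 to 0.21 for CD14 and -0.86 to 0.13 for MARCO, the differences between depots from -0.56 to 1.10 for CD163, -0.59 to 0.55 for MRC1 and -0.62 to 0.29 for CD9, and MRC1 between wild boar depots from -0.47 to 0.67.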

Other observations

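In wild boar GOM against ULB, 6 of 6 T and NK cell genes had positive log2 fold changes in the GOM, with a median of 1.41, whereas 2 of 5 B cell genes had. The 6 measured T and NK cell genes (of 8) summed to 53.5 and 20.8 TPM in wild boar GOM, 84.4 and 51.4 TPM in Bama pig GOM, 15.4 and 15.9 TPM in wild boar ULB and 23.7 TPM in Bama pig ULB. The 5 measured B cell genes (of 6) summed to 13.9 and 48.7 TPM, 25.3 and 22.9 TPM, 14.8 and 20.1 TPM, and 21.8 TPM in the same order, and the 5 measured dendritic cell genes (of 6) to 9.94 and 10.03 TPM, 16.0 and 12.2 TPM, 4.01 and 6.19 TPM, and 4.49 TPM. The 5 endothelial genes (of 6) summed to 397 to 683 TPM and the 6 fibroblast genes to 1728 to 4438 TPM over all libraries, and 0 genes of these 5 lists were called between the breeds in either depot. Between the depots of wild boar, 1 fibroblast gene passed both thresholds, PI16, a marker of fibroblasts near vessels and septa, which rose from 22.9 and 27.6 TPM in the ULB to 97.5 and 178 TPM in the GOM (log2 fold change of 2.73 ± 0.51, edgeR, adjusted p = 0.0405).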
